A study of Homo sapiens with 6 samples.

Results

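The genes described here are the expressed long intergenic noncoding RNAs (LINC RNAs) of BT-549 cells. They were taken as every listed row whose symbol is LINC followed by a number and whose level reached 0.2 CPM (counts divided by the library total and multiplied by 1000000) in 3 or more of the 6 samples. Of 37887 listed rows, 2095 carried such a symbol and 291 met the rule. A further 781 LINC rows had no count in any sample. All 291 passed the filter on low counts of the test below, as did 118 LINC rows under the rule. The members were thus selected on their counts in these same libraries, so their levels are given as a description.

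BT-549 is an established human cell line of triple-negative breast cancer, which lacks estrogen and progesterone receptors and HER2 amplification. IRF1 is a transcription factor that drives genes induced by interferon (IFN). It was knocked down with a short hairpin RNA (shRNA) to determine which genes depend on it. Vehicle (0.1% DMSO) was given to 3 control samples and doxycycline (DOX, 500 ng/mL) to 3 IRF1shRNA samples. A control shRNA is named in the titles of the control samples, but the series description has one tet-IRF1 shRNA line given vehicle or DOX. By the treatments listed no control received DOX, so silencing and the drug cannot be told apart. If the titles hold, a difference between the shRNA lines cannot be told apart from silencing either. The silenced group rests on 1 hairpin.

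LINC symbols are given to long RNAs that lie between protein-coding genes and have no named function or protein product. Such RNAs are in general less abundant than mRNAs and more restricted to particular tissues and tumors. Some act in the nucleus on chromatin or splicing and some in the cytoplasm on other RNAs, and several encode small peptides. Others start beside a protein-coding gene on the opposite strand, where both genes share one promoter region.

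IRF1 itself was lower in every silenced sample. It read 45.3, 48.1 and 51.5 CPM in the controls against 13.8, 14.9 and 14.6 CPM after silencing, a log2 fold change of −1.74 ± 0.06 (SE; adjusted p = 4.53e-13, quasi-likelihood test in edgeR, Benjamini-Hochberg method over 18851 genes). Library totals ran from 55143808 counts in IRF1shRNA replicate 2 to 160436234 in IRF1shRNA replicate 3, so that 0.2 CPM stood for 11.03 to 32.1 counts. The 5 mesenchymal markers fixed for BT-549 (VIM, FN1, CDH2, ZEB1 and AXL) summed to 2335 to 2463 CPM in controls and 1931 to 2032 CPM in IRF1shRNA samples. VIM, FN1 and ZEB1 had log2 fold changes of −0.56, −0.34 and −0.14, while CDH2 and AXL were both at 0.03. The 4 receptor and epithelial markers (ESR1, PGR, CDH1 and EPCAM) summed to 0.810 to 1.22 CPM. The 5 markers of leukocytes, endothelium and basal epithelium summed to 3.66 to 3.90 CPM in controls and 4.32 to 5.22 CPM in IRF1shRNA samples. Among these CD3E was at 0 in every control, while CD14 went from 1.09 to 2.22 CPM, and their part in the results was not tested. Levels below are CPM scaled by edgeR's TMM factors.

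The LINC RNAs were sparse. Their mean level over the 6 samples had a median of 0.663 CPM and ran from 0.152 to 52.3 CPM, and 21 of them reached 10 CPM. At the threshold itself, LINC01460, LINC02449 and LINC02649 lay just inside, with a third-highest library at 0.201, 0.208 and 0.209 CPM before scaling. LINC01725, LINC02202 and LINC02328 lay just outside at 0.199, 0.199 and 0.196 CPM. The 0.2 CPM level was reached in all 6 samples by 221 members, in 5 by 26, in 4 by 27 and in 3 by 17.

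Summed over the 291, the level was 817, 795 and 789 CPM in controls and 853, 841 and 857 CPM in IRF1shRNA samples. The means were 800 ± 14.7 and 850 ± 8.53 CPM (SD, n = 3 each), and the groups did not overlap. Most of the difference of 49.97 CPM came from a few RNAs, since LINC00641 added 35.0 CPM, LINC02693 added 25.6 CPM and LINC01133 fell by 16.7 CPM. The 10 most counted members held 39.8% of the sum. The median coefficient of variation within a group was 13.3% in controls and 15.5% in IRF1shRNA samples.

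Levels were also divided by the length of all exons that GENCODE 29 lists for a gene. The annotation used in counting was not given, so this ranking is approximate. LINC00641 ranked first at 7.38 CPM per kb. It was followed by LINC00472 (5.86), LINC01615 (5.76), LINC00665 (5.48), LINC01133 (5.23), LINC00342 (5.06), LINC00355 (4.82) and LINC02595 (4.43 CPM per kb). LINC00472, described as a tumor suppressor in breast cancer, read 26.9, 20.8 and 19.1 CPM in controls and 17.4, 16.9 and 20.0 CPM in IRF1shRNA samples. The groups overlapped, and its log2 fold change of −0.29 ± 0.10 (SE; adjusted p = 0.0230, quasi-likelihood test in edgeR, Benjamini-Hochberg method) rested on control replicate 1, without which it was −0.14 (edgeR adjusted p = 0.189). DESeq2 gave −0.29 (adjusted p = 0.139). LINC01615 and LINC00342 were not called, at log2 fold changes of −0.08 (95% interval −0.25 to 0.09) and 0.02 (−0.14 to 0.19). LINC00342 holds a stretch almost identical to another gene, so its counts are uncertain.

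LINC RNAs differed between IRF1shRNA and control samples in both directions, as did genes in general. By the quasi-likelihood test in edgeR with an adjusted p under 0.05, 66 rose (22.7%) and 52 fell (17.9%). Among all 18851 genes tested, 24.1% rose and 26.4% fell. With a fold change over 2 as well, 21 LINC RNAs rose and 17 fell, beside 3.43% and 4.43% of all genes. Of these 38, 10 had met the rule through 1 group alone, so nothing is read from their share. Among the 221 members at 0.2 CPM in all 6 samples, 10 rose and 6 fell over 2-fold. Of the 38, 23 had a mean under 0.5 CPM, and 80 called members changed by less than 2-fold. The median log2 fold change was 0.09 (quartiles −0.32 and 0.49) beside −0.0024 for all genes. No member was called in the opposite direction under any alternative setting.

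The share called depended on the level. It was 27.5% of the 109 members under 0.5 CPM, 32.9% of the 70 from 0.5 to 1 CPM, 52.1% of the 73 from 1 to 5 CPM and 69.2% of the 39 at 5 CPM or more. Over all genes tested the shares in the same bins were 17%, 34.4%, 51.2% and 66.5%. Where genes also had to pass the same 0.2 CPM rule, the share of all genes in the lowest bin was 23%, and that of other long noncoding RNAs was 15.5% there and 33.5% over all levels. Over all levels the share was 40.5% of the LINC RNAs, 50.5% of all genes tested and 55.9% of all genes that pass the same rule. Of protein-coding genes that pass it, the share was 62.3%, with 33.4% under 0.5 CPM and 43.8% from 0.5 to 1 CPM.

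**Figure D1:**
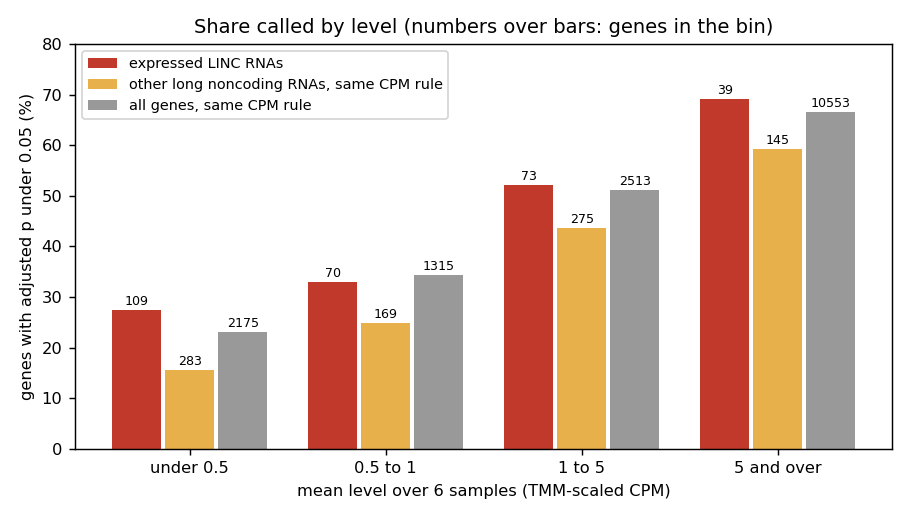
Share of genes with an adjusted p under 0.05 (vertical axis, %) in 4 bins of mean level (horizontal axis, TMM-scaled CPM) for the expressed LINC RNAs, other long noncoding RNAs and all genes that pass the same rule, with the number of genes over each bar. The share rises with level in every set, from 27.5% to 69.2% for the LINC RNAs.

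The ranges of the groups were apart for 143 members (49.1%), against 56.8% of all genes tested. IRF1shRNA samples were higher for 81 members (27.8%, against 27.3% of all genes) and lower for 62 (21.3%, against 29.5%). Of the 173 members not called, 122 had a 95% interval within a 2-fold change either way, while that of 51 reached 2-fold, so that a change of that size was not resolved in these at this depth. There were 11 members that reached 0.2 CPM only in the 3 samples of 1 group, 7 of them in IRF1shRNA and 4 in control. The rule admits such RNAs because they are high in one group, so their calls (10 of 11) carry no weight. A further 8 reached 0.2 CPM in 3 control and 1 IRF1shRNA samples, and 10 in 1 control and 3 IRF1shRNA samples. These too passed through the higher group, and their calls lean on the same selection. In 14 others the level was reached in 3 control and 2 IRF1shRNA samples, and in 12 in 2 control and 3 IRF1shRNA samples. There too the group with fewer such samples would not have met the rule alone.

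**Figure D2:**
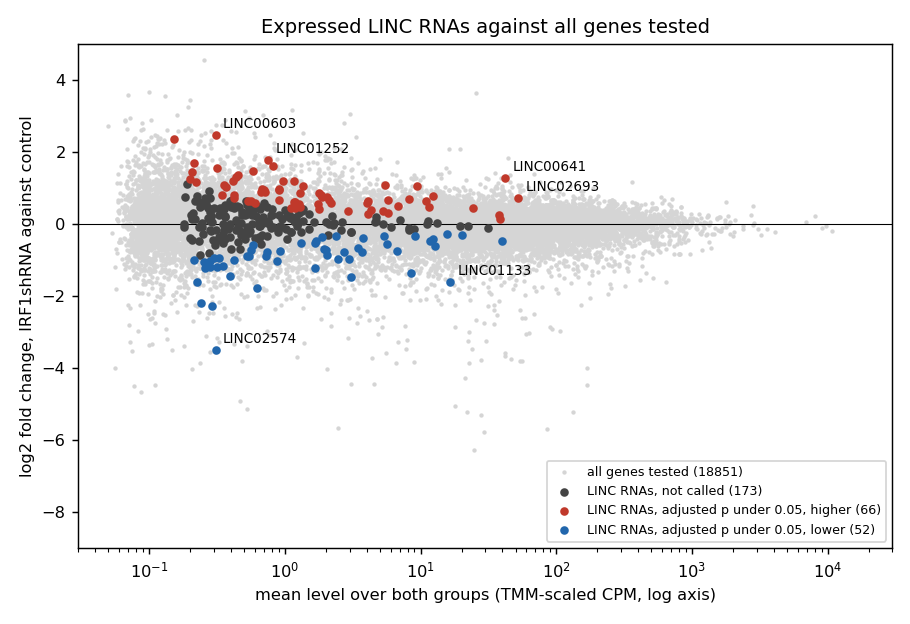
Log2 fold change of IRF1shRNA against control (vertical axis) by mean level (horizontal axis, TMM-scaled CPM, log axis) for all 18851 genes tested in gray and the 291 LINC RNAs in color by call. Called LINC RNAs lie on both sides of 0, and LINC00641 and LINC01133 stand out among those above 10 CPM.

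Promoter sequences were read from RefSeq (GRCh38.p14), taking 250 bases before to 50 after each gene's start. IRF1 binds repeats of GAAA, so GAAA, any 2 bases and GAAA again (the GAAA repeat) was searched on both strands. A promoter was found for 205 members. The GAAA repeat was present in 5 of them (2.44%), against 3.65% of 27305 promoters of the same length. It was in 0 of 42 promoters of members that rose, 1 of 41 of members that fell and 4 of 122 of members not called. The shares are counts of letters and say nothing of occupancy.

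Among called members with a promoter found, those of the 2 rises and 2 falls with the smallest adjusted p at a mean of at least 1 CPM are shown because these RNAs are described in detail below and none of the 4 promoters holds the GAAA repeat. They lie at chr14:21206851-21207150 (minus strand, LINC00641), chr3:122886263-122886562 (plus, LINC02035), chr1:159960974-159961273 (plus, LINC01133) and chr19:23416025-23416324 (minus, LINC01224), and are written 5′ to 3′ in the direction of transcription, in lower case since nothing is marked.
LINC00641: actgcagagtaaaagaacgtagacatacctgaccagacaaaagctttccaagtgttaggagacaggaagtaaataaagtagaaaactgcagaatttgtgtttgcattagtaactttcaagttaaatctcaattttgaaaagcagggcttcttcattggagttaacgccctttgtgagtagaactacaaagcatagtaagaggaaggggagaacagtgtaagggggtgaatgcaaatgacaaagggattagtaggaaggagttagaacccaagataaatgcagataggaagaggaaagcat
LINC02035: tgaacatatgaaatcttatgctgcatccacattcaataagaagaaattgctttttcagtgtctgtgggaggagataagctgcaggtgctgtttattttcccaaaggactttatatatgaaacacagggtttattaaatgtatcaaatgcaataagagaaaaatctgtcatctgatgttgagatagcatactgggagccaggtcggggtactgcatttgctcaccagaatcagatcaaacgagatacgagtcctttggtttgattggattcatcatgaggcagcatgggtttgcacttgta
LINC01133: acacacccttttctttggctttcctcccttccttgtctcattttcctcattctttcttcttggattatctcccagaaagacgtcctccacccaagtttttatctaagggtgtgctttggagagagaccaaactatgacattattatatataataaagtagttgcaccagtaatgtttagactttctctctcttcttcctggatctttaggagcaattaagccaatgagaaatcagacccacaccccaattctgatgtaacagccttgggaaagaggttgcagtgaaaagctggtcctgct
LINC01224: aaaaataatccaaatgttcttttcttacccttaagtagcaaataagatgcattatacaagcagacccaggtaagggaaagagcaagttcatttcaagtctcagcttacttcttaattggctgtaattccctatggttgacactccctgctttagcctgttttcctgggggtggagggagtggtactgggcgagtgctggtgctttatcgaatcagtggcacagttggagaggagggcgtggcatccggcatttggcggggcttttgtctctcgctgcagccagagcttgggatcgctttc

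Of the members whose groups did not overlap and whose mean level was 0.5 CPM or more, 6 fell past both thresholds. LINC01133, an RNA studied in colorectal, lung and breast cancers, was the most abundant of them. It has 6 exons at chr1:159961218-159984750 on the plus strand (GRCh38). Its level was 23.9, 25.9 and 24.7 CPM in controls and 7.55, 8.56 and 8.34 CPM in IRF1shRNA samples. Every control was thus well above every silenced sample, and the mean fell to 32.8% of control, a log2 fold change of −1.61 ± 0.07 (SE; adjusted p = 6.43e-12, quasi-likelihood test in edgeR, Benjamini-Hochberg method).

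LINC01224, described in hepatocellular and other carcinomas, read 11.6, 13.4 and 11.7 CPM in controls and 4.81, 5.01 and 4.60 CPM in IRF1shRNA samples. The groups lay apart by more than the spread within either, and the log2 fold change was −1.35 ± 0.08 (SE; adjusted p = 3.64e-10, quasi-likelihood test in edgeR, Benjamini-Hochberg method). LINC01224 lies 3.67 kb from ZNF91, a zinc finger repressor of retrotransposons on the same strand, which rose by a log2 fold change of 0.24. LINC00052, described in breast and liver cancer, read 4.07, 5.27 and 4.27 CPM in controls and 1.75, 1.57 and 1.59 CPM after silencing. The change was −1.46 ± 0.12 on the log2 scale (SE; adjusted p = 2.04e-08, same edgeR test), and the nearest tested protein-coding gene, NTRK3 at 280 kb, fell by 0.64 on the log2 scale.

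The 3 remaining falls were of less abundant RNAs. LINC02243 on the X chromosome fell the most, from 0.876, 0.930 and 1.07 CPM to 0.270, 0.252 and 0.310 CPM (log2 fold change −1.76 ± 0.22, SE). MOSPD1, 34.3 kb away on the opposite strand, fell from 160 ± 4.23 to 71.7 ± 3.87 CPM (SD, n = 3 each; log2 fold change −1.16). LINC02595 read 2.73, 2.37 and 1.85 CPM in controls and 0.984 to 1.03 CPM after silencing (−1.21 ± 0.16). LINC02084 read 0.933, 1.23 and 1.42 CPM in controls and 0.682, 0.432 and 0.583 CPM after silencing (−1.04 ± 0.21). It lies 1.94 kb from EOMES, a T-box transcription factor of lymphocytes and early development, which fell as well, from 4.86 ± 0.174 to 2.57 ± 0.141 CPM (−0.92 ± 0.10, SE). The groups did not overlap in these 3 RNAs, which was a condition for naming them. The adjusted p-values ran from 3.84e-06 to 0.000507 by the quasi-likelihood test in edgeR, Benjamini-Hochberg method.

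There were 9 rises past both thresholds under the same conditions. LINC00641, studied as a growth regulator in several cancers, had the smallest adjusted p of all members. It has 2 exons at chr14:21200079-21206900 on the minus strand (GRCh38). It read 25.2, 25.5 and 23.3 CPM in controls and 61.6, 61.5 and 55.99 CPM in IRF1shRNA samples. Silenced samples were therefore all more than 2-fold above the controls, with a log2 fold change of 1.27 ± 0.06 (SE; adjusted p = 5.37e-12, quasi-likelihood test in edgeR, Benjamini-Hochberg method). LINC00641 lies 2.24 kb beyond the 3′ end of HNRNPC, a pre-mRNA binding protein gene of the same strand. HNRNPC was at 544 ± 1.82 and 539 ± 15.5 CPM (SD, n = 3 each) and was not called. Whether reads of LINC00641 come from its own transcript or from RNA continuing past HNRNPC cannot be told apart in counts per gene.

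LINC02035 read 3.72, 3.64 and 3.16 CPM in controls and 7.42, 7.46 and 7.25 CPM after silencing. It rose by 1.07 ± 0.09 on the log2 scale (SE; adjusted p = 1.93e-08, quasi-likelihood test in edgeR, Benjamini-Hochberg method), while SLC49A4, a transporter gene 5.80 kb away on the same strand, fell by 0.18 on the log2 scale. LINC01606 read 5.58, 7.65 and 5.09 CPM in controls and 10.3, 15.01 and 12.6 CPM in IRF1shRNA samples (1.04 ± 0.14). LINC01606 varied more between replicates than LINC02035 and shares exonic sequence with another annotated gene on its strand.

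The other rises started from control means under 1 CPM. LINC01252 went from 0.398, 0.261 and 0.369 CPM to 1.21, 1.10 and 1.19 CPM, the largest rise in this set (log2 fold change 1.77 ± 0.21, SE), although its exons overlap those of a gene on the opposite strand. LINC01111 went from 0.422, 0.384 and 0.416 CPM to 1.44, 1.03 and 1.20 CPM (1.60 ± 0.20), and shares exonic sequence with LINC01109 on its strand. LINC01301 went from 0.771, 0.865 and 0.523 CPM to 1.93, 1.14 and 1.76 CPM (1.20 ± 0.21). Separate groups were a condition for naming these 3, and the gap between groups was smallest in LINC01301. LINC00271, now named AHI1-DT since it starts beside AHI1, a gene of the primary cilium, went from 1.02, 0.971 and 0.671 CPM to 2.02, 1.55 and 1.90 CPM (1.06 ± 0.18). LINC01203 and LINC02154 lie 31.3 kb apart on opposite strands of the X chromosome. LINC01203 went from 0.454, 0.294 and 0.194 CPM to 0.944, 0.703 and 0.917 CPM (1.48 ± 0.28), and LINC02154 from 0.665, 0.530 and 0.570 CPM to 1.52, 1.22 and 1.26 CPM (1.19 ± 0.18). LINC01203 was under 0.2 CPM in control replicate 3, so its controls alone would not have met the rule, and it is given with no test. The adjusted p-value of LINC02154 was 3.04e-05 by the quasi-likelihood test in edgeR, Benjamini-Hochberg method.

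**Figure D3:**
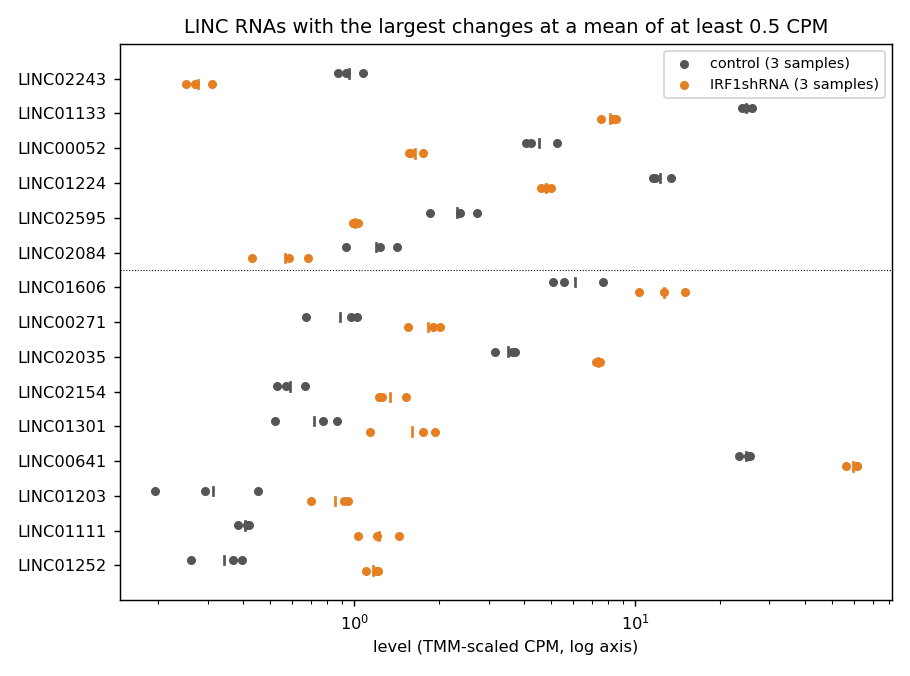
Level of the 6 falls (above the dotted line) and 9 rises at a mean of at least 0.5 CPM (horizontal axis, TMM-scaled CPM, log axis), with 3 samples per group as points and the group mean as a vertical tick. The 15 RNAs were named on the condition that the groups did not overlap, so their separation is not a result. LINC01203 is given with no test.

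LINC02693, the most counted member at a mean of 52.3 CPM, changed by less than 2-fold but with little spread. It read 39.7, 39.2 and 39.8 CPM in controls and 64.3, 64.6 and 66.6 CPM in IRF1shRNA samples. The samples fell into 2 tight, separate groups, with a log2 fold change of 0.72 ± 0.04 (SE; adjusted p = 2.40e-10, quasi-likelihood test in edgeR, Benjamini-Hochberg method). GENCODE 29 lists this gene as C17orf51 and as protein-coding. The nearest other protein-coding gene, KCNJ12, a potassium channel gene 8.51 kb away on the opposite strand, fell from 11.3 ± 0.723 to 7.68 ± 0.835 CPM (SD, n = 3 each; log2 fold change −0.55).

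The list of LINC RNAs known from cancer held 24 symbols, of which 12 were tested and 11 were members. Among the 12, 3 rose and 6 fell (median log2 fold change −0.26), beside 24.1% and 26.4% of all genes. LINC00665, which encodes a micropeptide described in triple-negative breast cancer, read 47.5, 45.6 and 44.8 CPM in controls and 32.6, 33.8 and 32.4 CPM after silencing. LINC00511, described as oncogenic in breast cancer, read 3.98, 4.28 and 4.37 CPM in controls and 2.46, 2.76 and 2.77 CPM after silencing. Both fell with no overlap between groups, by 0.48 ± 0.05 and 0.67 ± 0.10 on the log2 scale (SE; adjusted p = 2.60e-07 and 2.44e-05, quasi-likelihood test in edgeR, Benjamini-Hochberg method). The other falls were LINC01133 and LINC00472, given above, LINC00839 (0.405 ± 0.0314 to 0.159 ± 0.0919 CPM, SD, n = 3 each) and LINC01234, which lay under the rule. LINC00839 met the rule through its controls, since its silenced samples alone would not have passed, so its fall carries no weight. LINC01234 was scarce, at 0.196 ± 0.0338 CPM in controls and 0.0436 ± 0.0322 CPM after silencing (SD, n = 3 each), so its fall is uncertain. The call of LINC00472 rested on control replicate 1. Nothing is therefore read from the number of falls in this list.

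The rises of this list were in LINC00346, LINC00467 and LINC00963. LINC00346, now named PRECSIT and described as a p53-regulated activator of STAT3 in squamous cell carcinoma, read 8.67, 8.32 and 8.56 CPM in controls and 11.9, 13.6 and 14.1 CPM after silencing (log2 fold change 0.64 ± 0.08, SE). LINC00467, first described as repressed by N-Myc in neuroblastoma, read 1.55, 1.52 and 1.17 CPM in controls and 2.41, 2.43 and 2.24 CPM after silencing (0.74 ± 0.14). TRAF5, a signaling adaptor gene 7.86 kb from LINC00467 on the same strand, fell from 3.16 ± 0.0585 to 1.61 ± 0.241 CPM (SD, n = 3 each), the opposite direction. LINC00963, described in castration-resistant prostate cancer, rose from 34.6 ± 1.40 to 41.4 ± 1.84 CPM (0.26 ± 0.05).

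LINC00460, LINC00662 and LINC00339 were not called, at log2 fold changes of −0.22 (95% interval −0.57 to 0.12), −0.11 (−0.26 to 0.03) and −0.13 (−0.52 to 0.26). LINC00339, described as a regulator of its neighbor CDC42, read 1.23, 0.938 and 1.08 CPM in controls and 1.08, 0.739 and 1.08 CPM after silencing, and the groups overlapped. CDC42, a small GTPase gene 21.4 kb away, was at 365 ± 1.49 and 383 ± 10.7 CPM (SD, n = 3 each) and was not called. LINC00355, described in bladder cancer and outside the list, read 15.03, 12.9 and 13.2 CPM in controls and 9.43, 10.1 and 10.2 CPM after silencing (−0.47 ± 0.08, SE). None of 9 older LINC symbols of genes now known to encode small proteins was listed.

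Position in the genome was a feature the rule did not use. Of the 291, 289 were found in GENCODE 29 (GRCh38), 239 of them typed as lincRNA, with a median exon length of 2448 bp. No protein-coding gene overlapped 250 members, of which 60 rose and 46 fell (42.4% called, against 50.5% of all genes, of which 24.1% rose and 26.4% fell). Another 22 overlapped one on the opposite strand, with 5 rises and 4 falls, and 17 overlapped one on the same strand, with 1 rise and 1 fall. Exons of 88 members overlapped an exon of some other gene. The use of strand in counting was not given in the sources used here, so reads of these cannot be assigned to 1 gene with certainty. They include LINC02693, LINC00472, LINC00511, LINC00339, LINC00662, LINC01252, LINC01111 and LINC01606 above and LINC00476 below. Near-identical stretches of at least 300 bp at 98% identity in a gene elsewhere were held by 25 members, 7 of which rose and 4 fell, and their counts are uncertain too.

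The members that start beside a protein-coding gene were set apart by position. There were 28 whose start lay within 1 kb of that of a protein-coding gene on the opposite strand, an arrangement called divergent. Of these 11 rose (39.3%) and 0 fell, with 24 estimates above 0 and a median log2 fold change of 0.33. Among the 261 others 55 rose (21.1%) and 51 fell (19.5%), with a median of 0.05. Of all genes tested 24.1% rose and 26.4% fell, so 50.5% were called in either direction. The divergent RNAs had a median level of 1.12 CPM, against 0.663 CPM for all members. This grouping was examined after the results were known and was not tested.

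The protein-coding partners changed in both directions. Of the 28 partners 10 rose and 9 fell, beside 24.1% and 26.4% of all genes, with a median log2 fold change of 0.04. Beside the 11 RNAs that rose, the partner rose in 5, fell in 2 and was not called in 4. LINC00205 read 21.0, 20.6 and 20.7 CPM in controls and 27.7, 26.3 and 30.3 CPM after silencing (log2 fold change 0.44 ± 0.06, SE), and its partner POFUT2, a protein O-fucosyltransferase gene, rose by 0.73 ± 0.04. LINC02062, now CHD1-DT, read 0.746, 0.783 and 0.577 CPM in controls and 1.32, 0.937 and 1.04 CPM after silencing (0.67 ± 0.20), whereas CHD1, a chromatin remodeler gene, fell by 0.48 ± 0.05. LINC00476 read 4.61, 4.11 and 4.67 CPM in controls and 7.43, 6.86 and 6.90 CPM after silencing (0.66 ± 0.09), with its partner ERCC6L2, a DNA repair gene, not called at 0.11 ± 0.05. These 3 pairs thus showed a shared rise, opposite changes and a change of the RNA with its partner not called. LINC00894 rose by 0.69 ± 0.09 but shares a near-identical stretch with LINC00893, so both are uncertain.

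**Figure D4:**
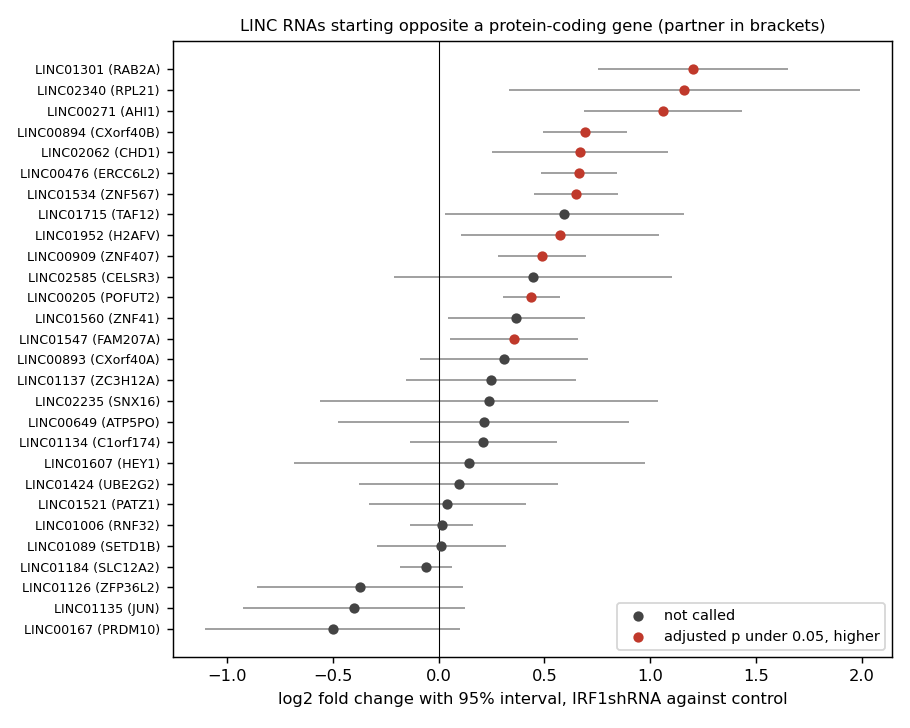
Log2 fold change of IRF1shRNA against control with its 95% interval (horizontal axis) for the 28 divergent LINC RNAs, ordered by estimate and labeled with the protein-coding partner. The 11 called RNAs all lie above 0, and the intervals of the others include 0 or missed the threshold after adjustment.

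LINC RNAs and the nearest protein-coding genes changed together only weakly. Taking the nearest tested gene on each side, the log2 fold changes of 571 pairs from 289 members had a Pearson r of 0.14 and a Spearman rho of 0.12. Both genes were called in 143 pairs, with the same direction in 78 (54.5%). Taking only the nearer gene, r was 0.27 and rho 0.21 over 289 members, and r was 0.17 without LINC02574, which met the rule through the controls alone. Within 5 kb r was 0.57 and rho 0.29 over 92 members, but r was 0.29 without LINC02574. These are descriptions across genes of the same libraries, which are not independent replicates.

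**Figure D5:**
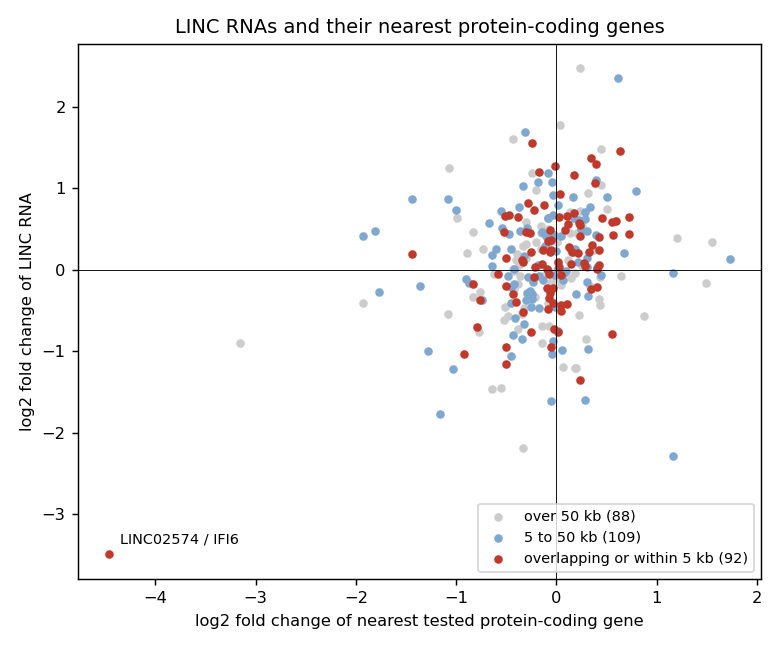
Log2 fold change of each LINC RNA (vertical axis) by that of its nearest tested protein-coding gene (horizontal axis), colored by the distance between them, for 289 members. The pair of LINC02574 and IFI6 lies far from the rest at −3.49 and −4.46.

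LINC02574 had the largest fall of all members and is named after its values were seen. It read 0.446, 0.604 and 0.617 CPM in controls and 0.0317, 0.126 and 0.0304 CPM in IRF1shRNA samples. It met the rule only through the controls, so its log2 fold change of −3.49 ± 0.45 (SE) is given with no test. It lies at chr1:27660328-27662722 on the minus strand (GRCh38), 3.34 kb beyond the 3′ end of IFI6, an IFN-induced gene of the same strand. IFI6 read 281, 301 and 388 CPM in controls and 13.6, 14.1 and 16.2 CPM after silencing, a log2 fold change of −4.46 ± 0.10 (SE). Both genes were lower in every silenced sample. Whether reads of LINC02574 come from a transcript of its own or from RNA continuing past IFI6 cannot be told apart in counts per gene.

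The promoters of LINC02574 (chr1:27662673-27662972, minus strand) and IFI6 (chr1:27672143-27672442, minus strand) are shown because both genes fell together. Capitals mark the GAAA repeat. IFI6 holds it at 3 places, and LINC02574 does not hold it in this window.
LINC02574: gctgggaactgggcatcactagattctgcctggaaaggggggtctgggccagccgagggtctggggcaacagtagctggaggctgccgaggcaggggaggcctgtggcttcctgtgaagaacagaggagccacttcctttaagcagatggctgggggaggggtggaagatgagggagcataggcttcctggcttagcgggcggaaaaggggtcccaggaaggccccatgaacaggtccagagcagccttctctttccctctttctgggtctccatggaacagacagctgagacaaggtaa
IFI6: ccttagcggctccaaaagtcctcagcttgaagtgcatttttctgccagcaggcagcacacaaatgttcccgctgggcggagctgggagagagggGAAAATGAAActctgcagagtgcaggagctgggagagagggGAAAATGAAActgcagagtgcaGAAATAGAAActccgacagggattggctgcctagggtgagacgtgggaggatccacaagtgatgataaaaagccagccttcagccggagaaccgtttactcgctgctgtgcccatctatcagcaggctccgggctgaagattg

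Among the called members with a promoter found (42 that rose and 41 that fell), LINC01085 was the 1 with the GAAA repeat, shown in capitals in a 30-base stretch of its promoter at chr4:14111987-14112016 (plus strand). Its level was 0.349, 0.326 and 0.651 CPM in controls and 0.183, 0.144 and 0.231 CPM after silencing, with no overlap between the groups. Its controls alone met the rule, while its silenced samples alone would not have. Its log2 fold change of −1.20 ± 0.35 (SE) is therefore given with no test.
LINC01085: gccagaccagGAAAGTGAAAggaaatggat

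The largest rises below 0.5 CPM, also named after their values were seen, were LINC00603 and LINC02804, which met the rule only through IRF1shRNA samples. LINC00603 read 0.0893, 0.114 and 0.0872 CPM in controls and 0.484, 0.324 and 0.747 CPM after silencing. LINC02804 read 0.0487, 0 and 0.0939 CPM in controls and 0.270, 0.252 and 0.249 CPM after silencing. Fitted fold changes at such levels depend on a handful of counts.

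Some members lie next to each other. There were 19 pairs of members within 50 kb, made of 35 RNAs. Both members were called in 7 pairs, in the same direction in each, and 1 of the 2 was called in 2 pairs, where 50.5% of all genes tested were called. The 7 were not independent, since 3 of them join LINC01409, LINC01128 and LINC00115 on chromosome 1, which rose by log2 fold changes of 0.31, 0.15 and 0.59. These 3 also hold near-identical stretches of genes elsewhere, so their counts are uncertain. LINC02340 and LINC00412, another of the 7, overlap on the same strand and are now 1 RefSeq gene. LINC01443 and LINC01444 overlap on opposite strands, and the use of strand in counting was not given. The pair of LINC02154 and LINC01203 includes LINC01203, which is given with no test. The shared directions are therefore not read as agreement between separately counted RNAs. LINC01291 read 10.8, 9.57 and 9.95 CPM in controls and 8.02, 8.04 and 8.18 CPM after silencing. LINC01293, 1.84 kb downstream and now listed under the same RefSeq gene, fell more, from 4.09, 4.07 and 3.57 CPM to 2.14, 2.04 and 1.84 CPM. The log2 fold changes were −0.32 ± 0.07 and −0.97 ± 0.11 (SE), so the 2 ends of this locus did not change to the same extent.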

How the data were processed

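RNA-seq was performed on 6 samples of BT-549 cells, 3 control and 3 IRF1shRNA, grouped by their titles. Per the labels, total RNA was prepared with Trizol and libraries with TruSeq Stranded mRNA. The submitters' processing notes name CASAVA 1.8.2, STAR 2.7.9a, featureCounts, DESeq2 1.24.0 and GRCh38.p7, and the annotation release and strand setting are not given in the sources used here. Counts were deposited as raw values for each gene symbol, not normalized. Between 72.1% and 75.2% of values from 2 to 11 counts were even numbers, so mates of a pair appear to have been counted separately, and halved counts were run as an alternative. A total of 3 counts stood for 0.0187 to 0.0544 CPM, counting error only.

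Counts were tested with edgeR 4.0.16 (R 4.3.3; glmQLFit and glmQLFTest, group as the single factor, TMM, filterByExpr with a minimum count of 10) and adjusted by the Benjamini-Hochberg method over all 18851 genes that passed the filter. The script was tested on simulated data. The standard error is the log2 fold change divided by the square root of F. Levels are mean ± SD over 3 samples. Nothing states that replicates were separate passages, so p-values measure the spread between these samples. DESeq2 1.42.0, other scalings, filters, membership rules and leaving out each sample were alternatives.

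Members were matched to GENCODE 29 by symbol (259) or gene ID (30), and 2 found no match. Nearest tested protein-coding genes were taken on each side and also as the nearer of both. Promoters shown exclude chromosome 8. A search for another promoter motif is not reported here. Near-identical copies were found with megablast. Members were named if they had the largest changes past both thresholds at a mean of at least 0.5 CPM with no overlap of groups, the 8 highest levels per kilobase, a place in a gene list, a level next to the rule's threshold or the 5 smallest adjusted p-values. Where others were described, this was done after seeing their values. The members, lists and rules were chosen with earlier results of these data known.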

Additional observations from a re-analysis of the deposited data

How the results depend on the processing

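Of the values recomputed for IRF1, the main counts, the median, the neighbor correlation and the motif count, 112 kept their call or stayed within 1.5 times the reported value (for the median, within the SD of 0.0194 between replicates) and 18 moved further. With at least 1 CPM in at least 3 samples, which leaves 116 members, 28 fell, 8 rose and 4 fell over 2-fold, and the neighbor r was 0.038. With 0.5 CPM as the rule (188 members), 12 rose and 6 fell over 2-fold, the neighbor r was 0.083 and 2 promoters held the GAAA repeat. With 0.2 CPM in all 6 samples (221 members), 10 rose and 6 fell over 2-fold, the neighbor r was 0.046 and 2 promoters held it. These settings test fewer members. Without LINC02574, chosen after seeing the data, the neighbor r was 0.082. With the replicate number as a block, 66 members rose and 52 fell, of which 63 and 50 were shared with the reported calls, while deviations of same-numbered samples correlated at −0.0543, 0.0435 and 0.0731, so the numbers were not taken as pairs. Upper quartile and library size scaling moved the members' median to 0.13 and 0.14, beside all-gene medians of 0.041 and 0.049, and library size scaling gave 74 rises and 47 falls. Leaving out each sample in turn gave 55 to 67 rises and 45 to 50 falls, with medians of 0.080 to 0.13 (reported: 0.087).

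Uncalled members near 0 reversed when a sample was left out. LINC02449 ranged from −0.34 to 0.14, with 0.04, 0.14 and 0.13 without control replicates 2 and 3 and IRF1shRNA replicate 3. LINC00342 ranged from −0.033 (without control replicate 3) to 0.097 and LINC01460 from −0.15 to 0.41. LINC00472 lost its call with DESeq2, upper quartile scaling, library size scaling, a threshold of 0.01 and without control replicate 1 or IRF1shRNA replicates 1 or 2. LINC00839 lost it at 0.01. The cause was not tested. The median standard error was 0.34 on the log2 scale for members under 0.5 CPM and 0.08 at 5 CPM or more.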

Other observations

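Long noncoding RNAs outside the LINC symbols also changed in both directions. Of 33 tested among 35 widely studied ones, 7 rose and 12 fell by edgeR's quasi-likelihood test with an adjusted p under 0.05, none over 2-fold, beside 24.1% and 26.4% of all genes tested. NORAD, which binds PUMILIO proteins, read 557, 559 and 528 CPM in controls and 828, 787 and 818 CPM after silencing (log2 fold change 0.57 ± 0.04, SE). KCNQ1OT1, which silences an imprinted gene cluster, read 71.0, 59.5 and 54.1 CPM in controls and 120, 104 and 130 CPM after silencing (0.94 ± 0.08). HOTAIR, expressed from the HOXC cluster, read 10.04, 9.55 and 9.47 CPM in controls and 6.93, 5.98 and 7.38 CPM after silencing (−0.51 ± 0.08). The groups did not overlap in any of these 3.

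Of 5 tested RNAs on a list linked to the IFN response, 4 fell and 1 rose, beside 26.4% and 24.1% of all genes tested. BISPR, which lies beside the IFN-induced gene BST2, read 0.698, 0.677 and 1.01 CPM in controls and 0.111, 0.0901 and 0.158 CPM after silencing (−2.64 ± 0.30, SE). C5orf56, which lies beside IRF1, read 4.02, 3.69 and 4.04 CPM in controls and 1.85, 1.62 and 1.59 CPM after silencing (−1.21 ± 0.11). MIR155HG and NEAT1 fell by 0.44 and 0.46 on the log2 scale, and LUCAT1 rose by 0.26. MIR155HG, NEAT1 and LUCAT1 are also counted among the 33 tested RNAs of the list above, so the counts of the lists are not separate. NRIR, too low to be tested, was at 0.114, 0.0816 and 0.0738 CPM in controls and at 0 in each silenced sample.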
